A study of Mus musculus with 8 samples.

Results

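Vascular endothelial growth factor (Vegf) genes, their receptors and the transcription factors of endothelial cells were followed through 4 kinds of lung mesenchyme sample. The set held the ligands Vegfa, Vegfb and Vegfc, the receptors Kdr, Flt1 and Flt4, the SoxF transcription factors Sox7, Sox17 and Sox18, and the apelin receptor gene Aplnr. Its members were the 20 probe sets, of 45037 on the array without controls, whose platform gene symbol was 1 of these 10 names. All 20 passed the filter on low signal, and the 10 genes were among 16112 genes tested. Mesenchyme, the supporting tissue that surrounds the airway tubes, was microdissected from lungs of CD1 mouse embryos aged e11.5 to e12.5 (days of embryonic development). In 2 groups, tip (around the growing branch ends) and stalk (around the airway behind them), RNA was taken straight after dissection. In the other 2 groups stalk pieces were first kept for 12 h on tissue culture plastic, in control growth medium or in the same medium with Wnt1, a secreted signal, at 400 ng/ml. Each group had 2 arrays, with no genetic change named in any group. The labels do not say whether replicates came from separate litters, nor how many embryos were pooled, so every p-value measures only the spread between these arrays.

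Vegfa, made by epithelium and mesenchyme of the embryonic lung among other tissues, binds Kdr (VEGF receptor 2), the main signalling receptor of blood vessel endothelium, and Flt1 (VEGF receptor 1), which binds it tightly and in its soluble form acts as a decoy. Vegfc acts mainly through Flt4 (VEGF receptor 3), which drives lymphatic growth and is also present on early blood vessels. The SoxF factors act in endothelial cells and overlap in arterial and lymphatic specification. In bulk tissue such as this, fewer endothelial cells and less RNA per endothelial cell cannot be told apart.

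Cultured and uncultured arrays differed in technical measures that touch each culture comparison here. The median signal of an array was 149 to 299 on the 4 cultured arrays and 76.5 to 99.8 on the 4 uncultured ones, after the authors had scaled all 8 to the same trimmed mean of 500. The ratio of 3' to 5' probe set signal for Actb, a gauge of RNA integrity and of the length of the labelled RNA, was 6.81 to 24.4 with culture and 2.02 to 4.52 without. Among all genes tested, the median log2 fold change was 0.45 for control culture minus stalk and 0.35 for Wnt1 culture minus stalk. The part of these differences in the results below was not tested. No detection call was used, so where a group's readings lie below the median of their arrays the size of a log2 fold change is uncertain.

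**Figure D1:**
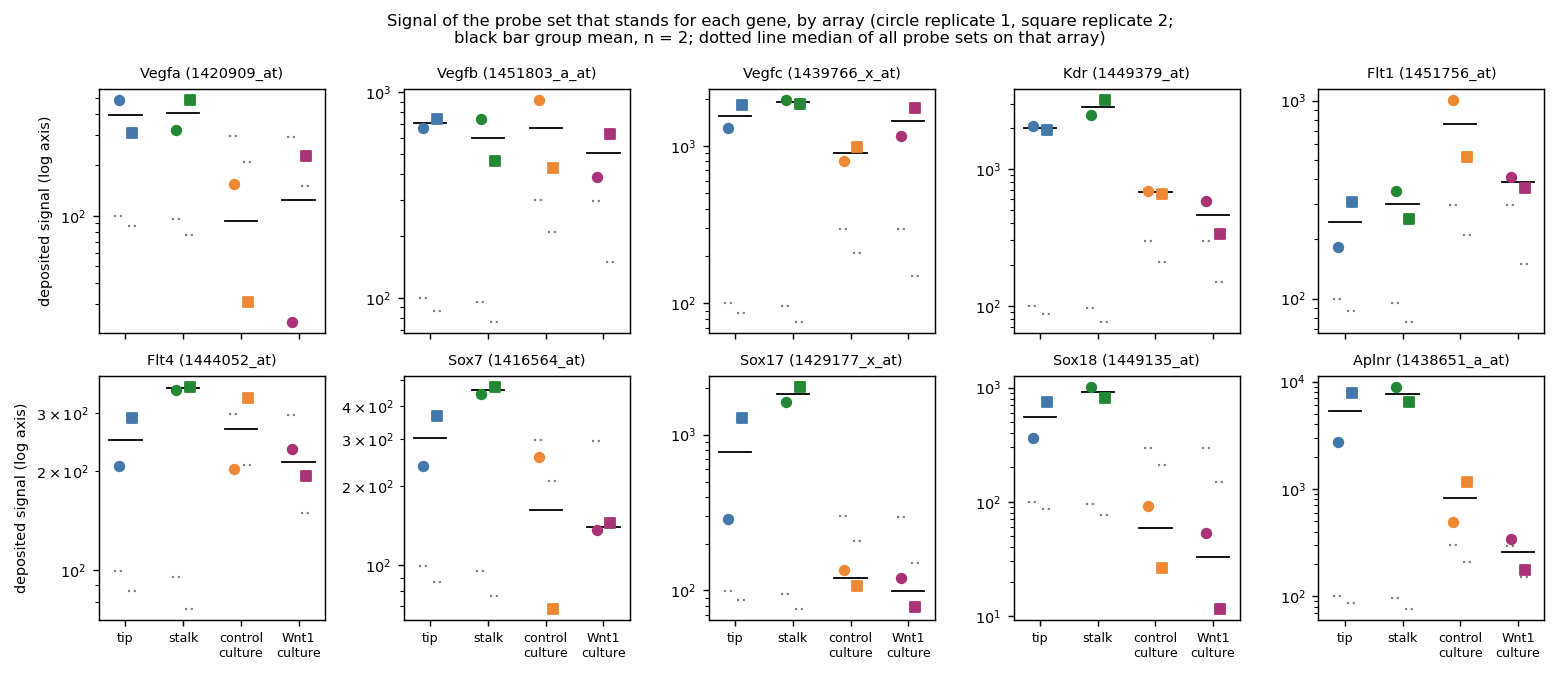
Deposited signal (log axis) of the probe set that stands for each of the 10 genes, on each of the 8 arrays in 4 groups of 2; circles are replicate 1, squares replicate 2, black bars group means and dotted lines the median of all probe sets on that array. Kdr, Sox17, Sox18 and Aplnr lie lower on all 4 cultured arrays than on all 4 uncultured ones, and tip replicate 1 is the lowest uncultured array for Sox17, Sox18 and Aplnr.

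Cultured stalk mesenchyme had lower signal than uncultured stalk for the receptor genes Kdr and Aplnr and the transcription factor genes Sox17 and Sox18. For Aplnr this holds on the brighter probe set, and the other was not lower in control culture. In control culture against uncultured stalk, 5 of the 10 genes fell past the threshold (limma, adjusted p under 0.05 over all genes tested) and none rose, namely Vegfc, Kdr, Sox17, Sox18 and Aplnr. Over all genes 26.4% were called, and 9.26% fell and 17.1% rose in that comparison, so that 64.9% of the calls were higher, against 44.6% with quantile normalization and 41.9% with arrays centred on the median. In Wnt1 culture against the same stalk arrays, 4 of the 10 fell, Kdr, Sox17, Sox18 and Aplnr, and none rose, where 6.88% of all genes fell, 9.35% rose and 57.6% of the calls were higher (46% and 42.7% with the same 2 scalings). The 2 arrays of a culture group lay below both stalk arrays for 8 of 10 genes in each medium, against 25.4% (control) and 25.5% (Wnt1) of all genes. Flt1 alone lay above in each medium, which is 1 of 10 genes against 46.1% and 41.5% of all genes. At an unadjusted p under 0.05 there were 8 of the 10 in control culture and 6 in Wnt1 culture, against 43.2% and 37.5% of all genes. The median log2 fold change of the 10 genes was -1.66 in control culture and -1.58 in Wnt1 culture. These comparisons share their stalk arrays, so the second adds no independent stalk measurement. Without stalk replicate 1 the number of the 10 genes that fell in control culture went from 5 to 0, and without stalk replicate 2 it went to 1 (Aplnr). Over all genes the calls of that comparison dropped from 4251 to 113 and 61 in the same fits, in which a lone stalk array is assumed to vary like the other groups. In Wnt1 culture the count of 4 became 3 (Kdr, Sox17 and Aplnr) without stalk replicate 1 and 1 (Aplnr) without stalk replicate 2. With all signals below the highest array median raised to it, 2 genes (Kdr and Sox7) fell in control culture and 1 (Kdr) in Wnt1 culture.

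**Figure D2:**
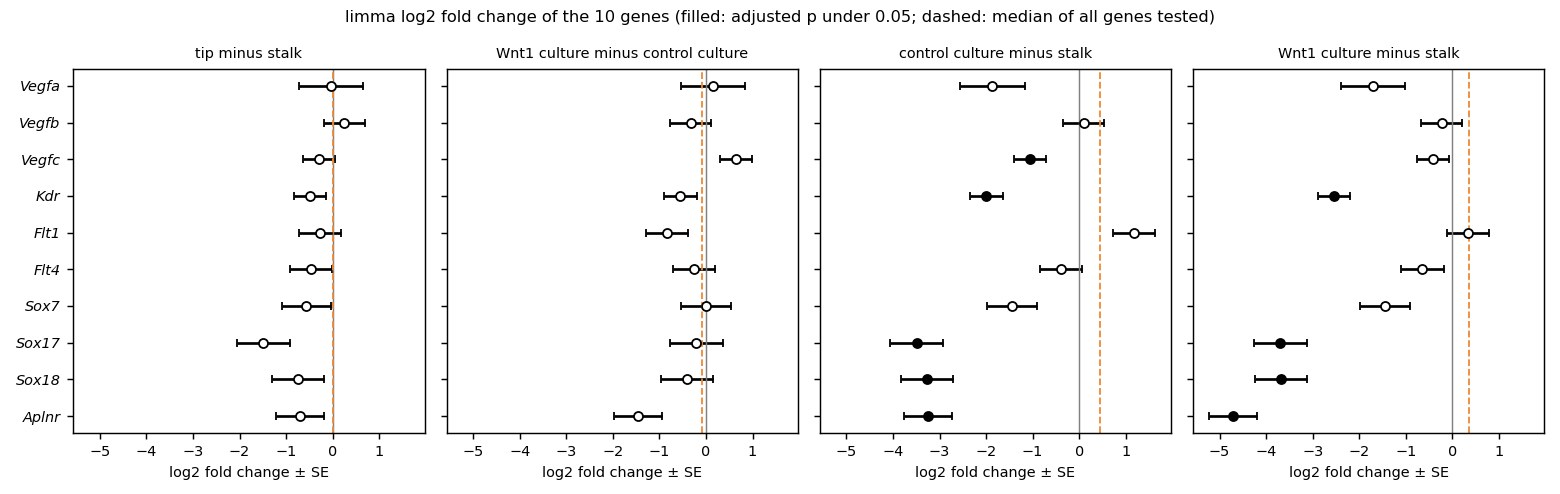
limma log2 fold change with its SE for the 10 genes in 4 comparisons, filled where adjusted p was under 0.05; the dashed line is the median of all 16112 genes. The culture comparisons carry all the filled points, 5 for control culture and 4 for Wnt1 culture, and all are below 0.

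Kdr had a signal of 2070 and 1928 on the tip arrays, 2480 and 3198 on the stalk arrays, 688 and 661 in control culture, and 585 and 337 in Wnt1 culture (replicates 1 and 2). Its order was therefore stalk, tip, control culture and Wnt1 culture, with no overlap between neighbouring groups. Against stalk it fell by 1.99 on the log2 scale in control culture (SE 0.35, adjusted p = 0.00629) and fell by 2.55 in Wnt1 culture (SE 0.35, adjusted p = 0.00244). The steps from stalk to tip (-0.49 ± 0.35, SE) and from control to Wnt1 culture (-0.55 ± 0.35) did not pass. On its array, Kdr ranked at the 91.3 to 94.4 percentile of all probe sets without culture and at the 72.3 to 81.2 percentile with it, a measure that does not depend on how the arrays were scaled. Without stalk replicate 1 or 2 the control culture value was -2.17 (adjusted p = 0.0549) or -1.81 (adjusted p = 0.0916), and without stalk replicate 2 the Wnt1 culture value was -2.37 (adjusted p = 0.0548).

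Flt1 did not follow Kdr. Its probe set with the highest mean read 182 and 306 in tip, 347 and 252 in stalk, 1008 and 520 in control culture, and 412 and 361 in Wnt1 culture. Both control culture arrays thus lay above all uncultured arrays, and tip and stalk overlapped. The log2 fold change against stalk was 1.18 ± 0.45 (SE) in control culture (adjusted p = 0.0694) and 0.33 ± 0.45 in Wnt1 culture, where it turned to -0.09 with quantile normalization. Without control culture replicate 2 the control culture value was 1.63 (adjusted p = 0.0297), and without Wnt1 culture replicate 1 its adjusted p was 0.0499. With arrays centred on the median it was 0.71 (adjusted p = 0.237). Of its other 3 probe sets, 1454037_a_at rose in control culture (2.15 ± 0.53, adjusted p = 0.0203 with each probe set tested by itself), from 72.1 and 58.4 to 553 and 346. Those stalk readings were below the median of their arrays, so the size of this rise is uncertain. The remaining probe sets, 1419300_at and 1440926_at, were at 0.22 ± 0.47 and -0.32 ± 0.64. Which Flt1 transcripts, membrane-bound or soluble, each probe set detects is not given in the sources used here.

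Ets factors are known regulators of endothelial genes, and of the 4 on the list of Vegf pathway genes, Ets1, Erg and Fli1 fell in both media and Etv2 passed in neither. Ets1 fell by 2.29 (adjusted p = 0.0129) in control culture and fell by 2.25 (adjusted p = 0.0173) in Wnt1 culture, from 2750 and 3635 in stalk to 390 and 952, and to 347 and 1120. The log2 fold changes in the same order were -2.24 and -2.25 for Erg and -1.72 and -2.43 for Fli1. The cultured readings of Erg and Fli1 were below the median of their arrays in both media, so these sizes are uncertain. Erg, Fli1 and Etv2 were picked for mention after their values were seen. Etv2 read 85.3 and 117 in stalk, 487 and 272 in control culture, and 380 and 52.2 in Wnt1 culture, with log2 fold changes of 1.51 ± 0.68 (SE, adjusted p = 0.111) and 0.48 ± 0.68. GGAAGT, a form of the motif bound by Ets factors, was looked for, on both strands, in the 250 bases before the annotated start of each member in RefSeq (GRCm38.p6). The table used held such windows for 6 of the 10 genes, Vegfa, Vegfb, Vegfc, Kdr, Flt1 and Flt4; Sox7, Sox17, Sox18 and Aplnr were not in it. A match was found in Kdr, at bases 217 to 212 before the start and on the strand opposite the gene, and in Flt1, at bases 52 to 47 before the start and on the strand of the gene. The stretches of 30 bases around them are shown because Kdr and Flt1 were the only ones of the 6 genes with a match to GGAAGT, with the match in capitals (ACTTCC is GGAAGT read on the other strand). Both are on the minus strand of chromosome 5, at chr5:75978655-75978684 for Kdr and chr5:147726046-147726075 for Flt1, written in the direction of the gene. Neither start is the outermost one annotated for its gene.
Kdr: tggctacattttACTTCCaccagaaaccga
Flt1: ggtgccggggtaGGAAGTgggctggggaaa
The shorter stretch GGAA, read on either strand, also occurs in windows of Vegfa, Vegfb, Vegfc and Flt4. Of 32851 windows of 250 bases in the table, 19.7% held GGAAGT, so a match in a pair of receptor genes only describes these letters. Whether any factor binds there was not tested. No window of the 6 genes held ACAAT, the core bound by Sox factors (27.7% of all windows). The core of the hypoxia response element, ACGTG, was found only in the window of the inner of the 2 annotated Vegfa starts (16.6% of all windows). That window, chr17:46025164-46025413, lies within the span of the gene, and whether the match acts as such an element was not tested.

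Flt4 gave no change past the threshold and 2 probe sets that differed. The brighter, 1444052_at, read 207 and 289 in tip, 354 and 361 in stalk, 204 and 333 in control culture, and 233 and 194 in Wnt1 culture. Stalk was thus highest on both arrays and the other 3 groups overlapped. Its log2 fold changes against stalk were -0.39 ± 0.45 (SE) and -0.64 ± 0.45 in control and Wnt1 culture, while those of 1421442_at were 0.83 ± 0.63 and 1.31 ± 0.63. With the mean of both probe sets the sign turned, to 0.22 and 0.33.

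Among the ligands, Vegfc fell in control culture on all 3 of its probe sets. The brightest, 1439766_x_at, read 1297 and 1822 in tip, 1965 and 1844 in stalk, 803 and 992 in control culture, and 1160 and 1740 in Wnt1 culture. Control culture was the lowest group with no overlap, and Wnt1 culture overlapped with tip. In control culture it fell by 1.06 on the log2 scale (SE 0.34, adjusted p = 0.041), and with each probe set tested by itself 1440739_at fell by 2.15 (adjusted p = 0.0114) and 1419417_at fell by 1.67 (adjusted p = 0.0312). In Wnt1 culture the same probe sets were at -0.41, -1.03 and -0.84 against stalk, none past the threshold. The suffix _x_at marks a probe set that can also bind transcripts of other genes, which is why the other 2 matter here. The call on the brightest was lost without either tip array (adjusted p = 0.0727 and 0.0735), without stalk replicate 1 or 2 (0.19 and 0.196), without control culture replicate 1 (0.138), with quantile normalization (-0.76, adjusted p = 0.169), with eBayes without a trend (0.0818), and with signals raised to the highest array median (0.104). With the 3 probe sets averaged, Vegfc fell by 1.63 (adjusted p = 0.0118).

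Vegfa gave opposite readings from its 2 probe sets in control culture. The one with the higher mean, 1420909_at, read 486 and 309 in tip, 324 and 488 in stalk, 154 and 30.5 in control culture, and 23.5 and 226 in Wnt1 culture. All 4 uncultured arrays were above all 4 cultured ones, tip overlapped with stalk, and the culture groups overlapped with each other. Its log2 fold change was -1.86 ± 0.69 (SE, adjusted p = 0.0611) in control culture and -1.71 ± 0.69 (adjusted p = 0.0949) in Wnt1 culture, and 3 of its 4 cultured readings lay below the median of their array. The control culture value passed with arrays centred on the median (-2.33, adjusted p = 0.0414), with array quality weights (0.0323) and with only the 2 groups compared (0.0497). The other probe set, 1451959_a_at, read 261 and 288 in tip, 140 and 85.5 in stalk, 379 and 397 in control culture, and 241 and 30.4 in Wnt1 culture. For it control culture was the highest group, with 1.48 ± 0.62 against stalk (adjusted p = 0.0981), and tip lay above stalk on both arrays (1.04 ± 0.62). With the mean of both probe sets the control culture value was -0.19 (adjusted p = 0.729). In Wnt1 culture the other probe set was at -0.08 ± 0.62 and the mean of both at -0.90 (adjusted p = 0.129). No direction for Vegfa in control culture holds across its probe sets.

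Vegfb, a ligand of Flt1, was level across the groups. It read 672 and 741 in tip, 744 and 461 in stalk, 919 and 429 in control culture, and 386 and 628 in Wnt1 culture. Every pair of groups overlapped except tip and Wnt1 culture, and the log2 fold changes in the 4 comparisons ran from -0.33 to 0.25, each smaller than its SE of 0.44. It was above the median on all 8 arrays.

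Genes known to answer to low oxygen, as Vegfa does, were also counted after culture. Of 19 tested, 2 rose and 1 fell in both control and Wnt1 culture against stalk, where 17.1% and 9.35% of all genes rose and 9.26% and 6.88% fell, with a median log2 fold change of -0.16 and -0.17. Adm, the vasodilator adrenomedullin, rose from 147 and 204 in stalk to 766 and 2415 in control culture (2.70, adjusted p = 0.00755) and 1330 and 1150 in Wnt1 culture (2.56, adjusted p = 0.0109). Car9, a carbonic anhydrase, rose by 1.91 and 1.70, and Kdm3a, a histone demethylase, fell (-1.73 and -1.47). Without stalk replicate 1 or 2 none of the 19 passed in either medium, nor did any with signals raised to the highest array median.

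Sox17 and Sox18 showed some of the largest differences of the set. Sox17 read 286 and 1270 in tip, 1611 and 2022 in stalk, 135 and 107 in control culture, and 121 and 78.9 in Wnt1 culture on 1429177_x_at. Stalk was highest, tip replicate 1 stood far below tip replicate 2, and the culture groups overlapped with each other below all uncultured arrays. Against stalk it fell by 3.49 (SE 0.57, adjusted p = 0.0052) in control culture and fell by 3.70 (SE 0.57, adjusted p = 0.00406) in Wnt1 culture. Its rank on the array went from the 69.1 to 91.3 percentile without culture to the 27.9 to 31.5 percentile with it. The cultured readings were thus below the median of their arrays, and the size of the fall is uncertain. With signals raised to the highest array median, limma gave -2.43 in each medium (adjusted p = 0.117 and 0.143). The suffix of 1429177_x_at marks a probe set that can also bind transcripts of other genes. The second probe set, 1421657_a_at, was dim on all 8 arrays (34.2 to 191) and was at -1.20 ± 0.56 and -0.15 ± 0.56 in the 2 media, neither past the threshold. With both probe sets averaged, Sox17 was at -2.35 (adjusted p = 0.0093) and -1.93 (adjusted p = 0.0225). In fits without stalk replicate 1 or 2 the control culture value was -3.65 or -3.33 (adjusted p = 0.0517 or 0.0695), and without stalk replicate 2 the Wnt1 culture value was -3.54 (adjusted p = 0.0675).

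Sox18, which has a single probe set, read 359 and 747 in tip, 1014 and 807 in stalk, 92.3 and 26.1 in control culture, and 53.5 and 11.6 in Wnt1 culture. The order of the groups was stalk, tip and then both cultures, which overlapped. It fell by 3.28 (SE 0.56, adjusted p = 0.00554) in control culture and fell by 3.69 (SE 0.56, adjusted p = 0.00378) in Wnt1 culture. In culture it ranked at only the 5.4 to 23.0 percentile of its array, against 72.4 to 85.4 without culture, so the cultured signal was below the array median and the size of the fall is uncertain. With all values below the highest array median, 299, raised to it, the log2 fold change was -1.47 in each medium (adjusted p = 0.0963 and 0.116). Leaving out stalk replicate 1 or 2 gave -3.12 and -3.44 in control culture (adjusted p = 0.065 and 0.068) and -3.53 and -3.85 in Wnt1 culture (adjusted p = 0.0657 and 0.0549).

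Sox7, the third SoxF gene, had 2 probe sets that moved apart. The brighter, 1416564_at, read 238 and 366 in tip, 444 and 472 in stalk, 256 and 68.7 in control culture, and 136 and 144 in Wnt1 culture. Both cultures lay below stalk, at -1.45 ± 0.54 (SE) in each medium (adjusted p = 0.0604 and 0.0751), and their replicates overlapped. With arrays centred on the median these values passed (-1.91 and -1.78, adjusted p = 0.0236 and 0.0395), as did that of control culture with signals raised to the highest array median (-0.55, adjusted p = 0.046). The other, 1432495_at, read 107 and 111 in tip, 81.5 and 7.49 in stalk, 698 and 316 in control culture, and 474 and 321 in Wnt1 culture. It rose by 2.69 ± 0.59 (adjusted p = 0.0148) and 2.44 ± 0.59 (adjusted p = 0.028), and with the mean of both probe sets the value was 0.62 in control culture and 0.49 in Wnt1 culture. The cultured readings of 1416564_at and the stalk readings of 1432495_at were below the median of their arrays, so these sizes are uncertain. No direction for Sox7 holds across its probe sets.

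**Figure D3:**
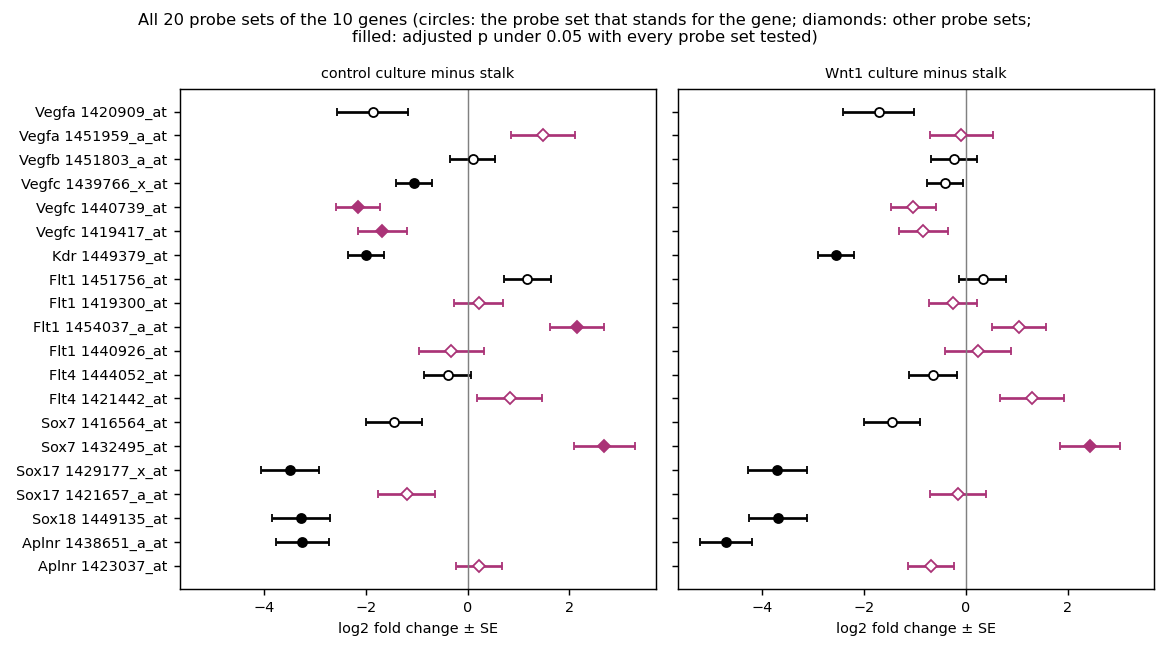
Log2 fold change with its SE of all 20 probe sets in control culture minus stalk and Wnt1 culture minus stalk, with circles for the probe set that stands for the gene, diamonds for the others, and filled symbols where adjusted p was under 0.05 with every probe set tested. The 3 Vegfc probe sets lie on the same side of 0, whereas those of Flt1, Flt4 and Sox7 lie on both sides of 0 in both media, and those of Vegfa and Aplnr in control culture.

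Aplnr, the receptor for apelin, is known from growing veins and capillaries. Its probe set 1438651_a_at read 2754 and 7845 in tip, 8923 and 6464 in stalk, 496 and 1161 in control culture, and 341 and 177 in Wnt1 culture. Tip and stalk overlapped, control culture lay below both and Wnt1 culture below control culture. Against stalk it fell by 3.24 (SE 0.52, adjusted p = 0.00501) in control culture and fell by 4.71 (SE 0.52, adjusted p = 0.000759) in Wnt1 culture. In rank it went from the 93.8 to 98.1 percentile without culture to the 69.8 and 89.0 percentile in control culture and to 55.4 and 55.7 in Wnt1 culture. The other probe set, 1423037_at, was at 0.23 ± 0.45 and -0.68 ± 0.45 in the 2 media, and with both averaged the values were -1.51 (adjusted p = 0.0232) and -2.70 (adjusted p = 0.00545). With signals raised to the highest array median, limma gave -3.24 and -4.39 for 1438651_a_at, neither past the threshold (adjusted p = 0.0642 and 0.0507). Without stalk replicate 1 the control culture value was -3.01 (adjusted p = 0.054), while the Wnt1 culture call held without each array in turn. Of the ligands of this receptor, Apela rose by 2.28 (adjusted p = 0.0168) and 2.56 (adjusted p = 0.0156), from 3.63 and 11.4 in stalk to 220 and 190 in control culture and to 325 and 206 in Wnt1 culture. The readings of Apela in stalk and in control culture were below the median of their arrays, so these sizes are uncertain. They were also all below the highest array median, 299, so raising signals to it leaves no Apela difference to test in control culture. Apln rose in Wnt1 culture by 1.35 (adjusted p = 0.0382), from 316 and 232 to 819 and 708, and was at 0.81 ± 0.39 in control culture (adjusted p = 0.131). Neither ligand passed in either medium without stalk replicate 1 or 2.

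**Figure D4:**
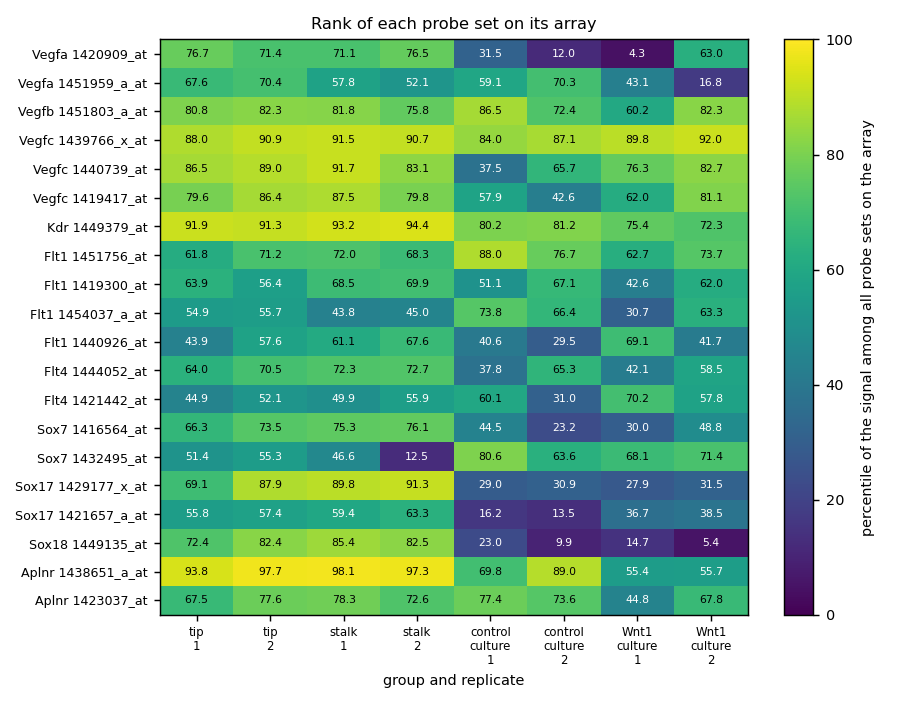
Percentile of each of the 20 probe sets among all probe sets on the same array, with 1 column per array. The percentiles of Sox18 are 72.4 to 85.4 on the uncultured arrays and 5.4 to 23.0 on the cultured ones, and those of Vegfb overlap between cultured and uncultured arrays.

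In the wider pathway more genes fell than rose after culture. Of 34 tested genes of a list of Vegf, angiopoietin, apelin and endothelial Notch genes, 11 fell and 4 rose in control culture, where 9.26% of all genes fell and 17.1% rose, with a median log2 fold change of -0.75. The falls with the smallest p were those of Tek, the angiopoietin receptor (-3.04, adjusted p = 0.00824), Nr2f2, a transcription factor of veins (-1.71, adjusted p = 0.00934), Ets1, and Plxnd1, a semaphorin receptor (-2.49, adjusted p = 0.0156). The 4 that rose were Apela, the adaptor Sh2d2a, the ligand Vegfd and the lymphatic transcription factor Prox1, the last 3 named after their values were seen. Vegfd rose by 1.88 (adjusted p = 0.0395), from 79.8 and 109 in stalk to 500 and 428. In Wnt1 culture 9 fell and 2 rose (Apela and Apln), where 6.88% of all genes fell and 9.35% rose, with a median of -0.59, led by Angpt1, a ligand of Tek (-2.43, adjusted p = 0.0106), Lmo2, a partner of blood and endothelial factors (-3.04, adjusted p = 0.0109), and Notch4 (-2.77, adjusted p = 0.0122). The Wnt1 culture readings of Angpt1 and Notch4, and the control culture readings of Tek, were below the median of their arrays, so these sizes are uncertain. None of the 34 passed in either medium without stalk replicate 1 or 2, and with the probe sets of each gene averaged the control culture counts were 5 lower and 2 higher. Those counts were 7 and 0 with quantile normalization, 1 and 0 with signals raised to the highest array median, 5 and 1 without tip replicate 1, 6 and 1 without tip replicate 2, and 4 and 0 without control culture replicate 1. In Wnt1 culture they were 4 and 1, 0 and 1, 6 and 1, and 6 and 1 under the first 4 of these settings, and 5 and 1 without Wnt1 culture replicate 1.

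Other endothelial markers fell alongside. Of 19 tested, 7 fell and none rose in control culture (median -1.14), where 9.26% of all genes fell and 17.1% rose. In Wnt1 culture 9 fell and none rose (median -1.28), where 6.88% of all genes fell and 9.35% rose. Ramp2 (-2.08, adjusted p = 0.00585), Plvap (-2.33, adjusted p = 0.00743), Tek and Cldn5, a tight junction protein (-2.20, adjusted p = 0.00984), led in control culture. In Wnt1 culture the leaders were Cldn5 (-3.37, adjusted p = 0.00186), Cd34 (-3.96, adjusted p = 0.00602), Esam (-2.73, adjusted p = 0.00635) and Icam2 (-2.54, adjusted p = 0.0064). The Wnt1 culture readings of these genes, and the control culture readings of Tek, were below the median of their arrays, so these sizes are uncertain. Tek and Tie1 stand on both this list and the pathway list. The summed signal of the 19 markers was 14487 to 16075 in stalk, 9244 to 12462 in tip, 6184 to 6918 in control culture and 3021 to 6439 in Wnt1 culture. Cdh5 and Eng, which also mark endothelium, were at -0.28 ± 0.57 and 0.05 ± 0.42 in control culture, and Pecam1 did not pass the filter on low signal. Without stalk replicate 1 or 2 the 7 calls in control culture became 0 and 0, and the 9 in Wnt1 culture became 2 and 1. Without control culture replicate 1 the 7 became 3, and with signals raised to the highest array median the 9 became 4.

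**Figure D5:**
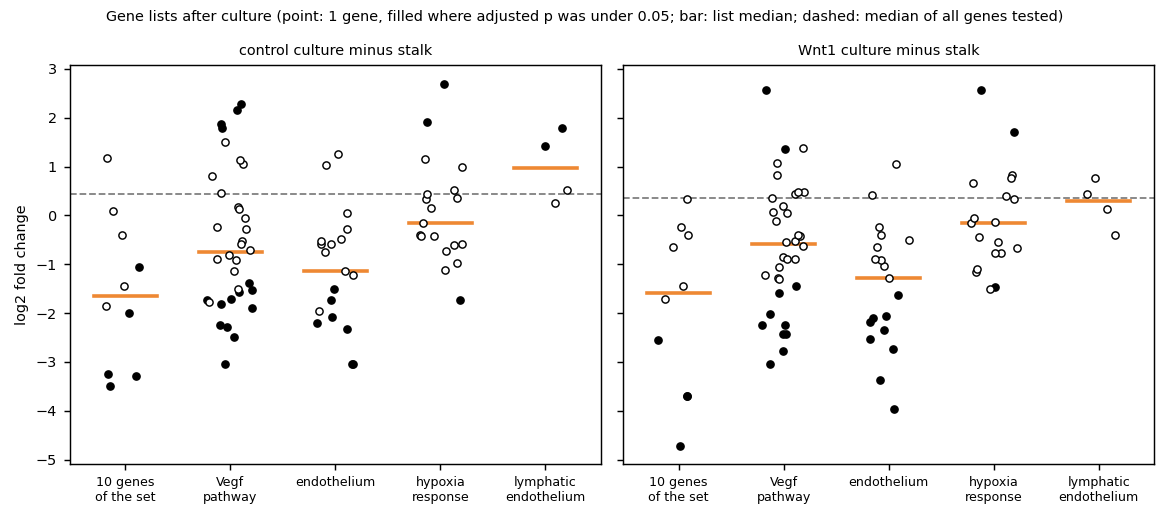
Log2 fold change of each gene of the set and of 4 lists in control culture minus stalk and Wnt1 culture minus stalk, filled where adjusted p was under 0.05; orange bars are list medians and the dashed line the median of all genes tested. The medians of the 10 genes (-1.66 and -1.58) and of the endothelial list (-1.14 and -1.28) lie below 0, and that of the lymphatic list in control culture (0.97) above 0.

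Markers of lymphatic endothelium, the cells in which Vegfc and Flt4 mainly act, did not fall. Of 4 tested, 2 rose in control culture and none passed in Wnt1 culture. Pdpn, which mesothelium and other lung cells also carry, rose from 679 and 517 in stalk to 1516 and 1831 (1.43, adjusted p = 0.0162), and Prox1 rose from 90.8 and 37.6, both below the median of their array, to 403 and 254 (1.80, adjusted p = 0.0424), so that this size is uncertain. Over all genes 17.1% rose in that comparison. Both calls were lost without stalk replicate 1 or 2, and 1 of them without either tip array or without control culture replicate 1. Lyve1 was at 0.51 ± 0.54 and Reln at 0.25 ± 0.53.

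Markers of other cell types are given beside these values, in a comparison in which 17.1% of all genes rose and the array medians of the cultured samples were higher. In control culture 4 of 11 macrophage markers rose and their summed signal was 12499 to 20833, against 4409 to 4969 in stalk, while 7 of 10 smooth muscle genes rose, to 142284 to 146838 from 9248 to 11353. Among 10 epithelial markers 2 rose (5083 to 5829 against 1605 to 1950), among 9 mesothelial markers 3 rose (6136 to 7975 against 3849 to 3905), and of 7 pericyte markers none passed. Of 6 erythroid genes 4 fell and 1 rose, with a median of -1.35, although their summed signal was higher (148447 to 341884 against 66227 to 116900). The part of these values in the results of the 10 genes was not tested.

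Tip mesenchyme had lower values than stalk for most of the set, but no gene passed the test. Of the 10 genes, 9 had a log2 fold change below 0 (tip minus stalk), as did 48.7% of all genes, and 6 had both tip arrays below both stalk arrays, against 16.2% of all genes. None lay higher without overlap, against 18.2% of all genes. Their median was -0.48 and that of all genes 0.01. These counts use 1 probe set per gene. Of the other probe sets, 1451959_a_at of Vegfa (1.04 ± 0.62), 1454037_a_at of Flt1 (0.58 ± 0.53) and 1432495_at of Sox7 (0.92 ± 0.59) lay higher without overlap. Lower without overlap were 1421657_a_at of Sox17 (-0.28 ± 0.56), 1419300_at and 1440926_at of Flt1, and 1421442_at of Flt4. With a gene's probe sets averaged, Sox17 was at -0.89 and Sox7 at 0.18. No gene of 16112 was called (limma, smallest adjusted p = 1, so 0% of all genes), and 91 had an unadjusted p under 0.05, which is 0.565%. That fit pools the spread of all 4 groups, whose replicates correlated at 0.97 in tip and stalk and at 0.82 and 0.83 in the cultures. The 91 became 872 with only the 2 groups compared and 1019 with array quality weights, again with no gene called, so these p-values depend on the pooling. The largest difference was that of Sox17 at -1.49 ± 0.57 (SE, unadjusted p = 0.0218), followed by Sox18 (-0.75 ± 0.56), Aplnr (-0.70 ± 0.52), Sox7 (-0.56 ± 0.54) and Kdr (-0.49 ± 0.35). Flt1 was at -0.27 ± 0.45.

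Tip replicate 1 carried much of these differences. Without it Sox17 was at -0.49, Sox18 at -0.26, and Aplnr and Flt1 turned to 0.05 and 0.04, whereas Kdr was at -0.54. The summed signal of the 19 endothelial markers was 9244 on that array and 12462 on tip replicate 2. On the same array the 11 macrophage markers summed to 1595, against 5149 on tip replicate 2 and 4409 to 4969 in stalk, and the 9 mesothelial markers to 8296, against 5069 and 3849 to 3905. The part of these differences between the tip arrays in the results was not tested. Of the pathway list 27 of 34 genes, and of the endothelial list 17 of 19, were below 0 in tip, with medians of -0.18 and -0.48. The largest differences were those of Angpt1 (-1.05 ± 0.47) and Tie1 (-0.93 ± 0.70), and of the endothelial phosphatase Ptprb (-1.38 ± 0.48) and Mmrn2 (-1.34 ± 0.61).

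Wnt1 in the culture medium gave no difference past the threshold in any of the 10 genes. None of 16112 genes (0%) was called between Wnt1 and control culture by limma, and 1297, or 8.05%, had an unadjusted p under 0.05. That fit pools the spread of all 4 groups. The 1297 became 389 with only the 2 groups compared and 372 with array quality weights, again with no gene called. Among the 10, only Aplnr had an unadjusted p under 0.05 in the main fit, at -1.47 ± 0.52 (SE, adjusted p = 0.554), with the readings given above. Of the others, Kdr (-0.55 ± 0.35) and Flt1 (-0.84 ± 0.45) also had both Wnt1 arrays below both control arrays, so that 3 of 10 genes lay lower without overlap, against 15.9% of all genes. Vegfc lay higher without overlap on all 3 of its probe sets, at 0.65 ± 0.34, 1.12 ± 0.44 and 0.84 ± 0.48, which makes 1 gene of 10 against 10.1% of all genes. The brighter probe sets of Vegfa, Flt4, Sox7 and Sox17, and the single ones of Vegfb and Sox18, overlapped between the media. Of the other probe sets of these genes, Vegfa 1451959_a_at lay lower without overlap (-1.57 ± 0.62) and Sox17 1421657_a_at higher (1.04 ± 0.56). Neither passed the threshold, and those of Flt4 and Sox7 overlapped. The largest differences of the pathway list were those of Tek (1.76 ± 0.58, adjusted p = 0.552), from 11.0 and 4.61 in control culture to 92.8 and 182 in Wnt1 culture (3 of these 4 readings below the median of their array, so that its size is uncertain), and of Hey1, a Notch target (1.61 ± 0.47, adjusted p = 0.552), from 84.4 and 80.4 to 346 and 339. Among the endothelial markers, after Tek the largest was Emcn at 1.31 ± 0.70. The control culture readings of Hey1 and Emcn were also below the median of their arrays, so the sizes for these genes are uncertain too. Wnt1 culture replicate 2, whose array median (149) and Actb ratio (6.81) were the lowest of the cultured arrays, had the lowest reading of all 8 arrays for Kdr, Sox17, Sox18, Aplnr and Flt4. Without it Aplnr was at -1.07 and Kdr at -0.19, and without Wnt1 culture replicate 1 they were at -1.87 and -0.92.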

How the data were processed

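RNA from 8 samples of mouse lung mesenchyme was measured on Affymetrix Mouse 430 2.0 arrays. The deposited values are intensities on a linear scale, summarised per probe set with MAS5 in Affymetrix Expression Console, per the submitters' processing notes; no version is stated there. The authors' intensities have the same trimmed mean of 500 on each array (2% trimmed at each end), as tested on the values. No further scaling was applied. Values were taken as log2(value + 44), the 25th percentile of all values, so fold changes of dim genes are understated. Of 45037 probe sets without controls, 34945 had 1 gene symbol in the platform annotation, 932 several and 9160 none. Probe sets above 96.6 (the 40th percentile) on at least 2 arrays were kept, and the one with the highest mean stood for its gene.

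All 4 groups entered 1 fit in limma 3.58.1 under R 4.3.3, by lmFit and trended eBayes. Two-sided p-values were adjusted by the Benjamini-Hochberg method across the 16112 genes, and the threshold was 0.05. An exact permutation test of 2 arrays against 2 cannot go below p = 0.33 and was not run. The method was tested on simulated data. The 10 genes and all gene lists were chosen with earlier results of these data known. All 10 genes are given with every probe set; of each list up to 4 genes are named per comparison by smallest p among those past the threshold, or the 2 with the largest difference where none passed. Figures were drawn with matplotlib 3.10.9. The number of arrays limits the precision.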

Additional observations from a re-analysis of the deposited data

How the results depend on the processing

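Results were recomputed under 15 other settings and in 8 fits that left out 1 array each. Leaving out 1 array gave 61 to 6364 genes for control culture minus stalk (4251 with all arrays), 65 to 5561 for Wnt1 culture minus stalk (2615), 0 to 61 for Wnt1 minus control culture (0) and 0 to 0 for tip minus stalk (0). Quantile normalization gave 1239 and 644 genes for the 2 culture comparisons, a floor at the highest array median 728 and 330 (40.7% and 26.4% of them higher), and a threshold of 0.10 gave 6497 and 4980. The replicate number as a block gave 3955 genes for Wnt1 culture minus stalk, and for control culture minus stalk it also called Vegfa (adjusted p = 0.0412) and Sox7 (0.047) lower; it changed the call of no other of the 10 genes. Between Wnt1 and control culture, 1 gene passed with a pseudocount of 16, 59 with the floor, 1 with each gene's probe sets averaged and 1 with the replicate block; 1 gene passed for tip minus stalk with the floor. Differences between same-numbered replicates correlated at -0.08 for tip with stalk, 0.02 and 0.05 for tip with the cultures, 0.14 and 0.15 for stalk with the cultures and 0.31 for the 2 cultures. Not all were over 0.1 and the labels name no shared source, so the numbers were not taken to pair the samples.

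Signs turned as follows. Vegfa was at 0.0157 (tip minus stalk) with quantile normalization, 0.0038 with centring and 0.50 with the mean of its probe sets, and at -0.71 (Wnt1 minus control culture) with that mean. Vegfb was at -0.36 (control culture minus stalk) with centring, and Flt1 at -0.0935 (Wnt1 culture minus stalk) with quantile normalization. With the mean of probe sets Flt4 was at 0.11 (Wnt1 minus control culture), 0.22 (control culture minus stalk) and 0.33 (Wnt1 culture minus stalk), and Sox7 at 0.18 (tip minus stalk), -0.12, 0.62 and 0.49. Sox7 was at -0.0347 (Wnt1 minus control culture) with the larger pseudocount, and Sox17 at 0.42 with the mean and 1.04 without probe sets that may bind other genes. Without the same probe sets Sox17 lost its calls (-1.20 and -0.15 against stalk). With 1 array left out, values ran from -0.33 to 0.26 for Vegfa, -0.0718 to 0.57 for Vegfb, -0.59 to 0.0396 for Flt1 and -1.45 to 0.0464 for Aplnr in tip minus stalk. In Wnt1 minus control culture they ran from -0.85 to 1.15 for Vegfa, -0.84 to 0.18 for Vegfb, -0.55 to 0.0511 for Flt4, -0.70 to 0.71 for Sox7, -0.42 to 0.0041 for Sox17 and -0.89 to 0.0704 for Sox18. Vegfb ran from -0.41 to 0.61 in control culture minus stalk and from -0.55 to 0.0923 in Wnt1 culture minus stalk. The cause was not tested.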

Other observations

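The genes whose pattern over the 8 arrays was most like that of Kdr were Baz2b (Pearson r = 0.9972), Zeb2 (0.9939) and Cdc7 (0.9924). For Aplnr they were Klhdc10 (0.9899), Cldn5 (0.9897) and Gli3 (0.988). Cldn5 is also on the list of endothelial markers. Among the 10 genes, Kdr and Sox18 had r = 0.962, Sox17 and Sox18 0.958, and Kdr and Aplnr 0.948. The 8 arrays share the split into cultured and uncultured samples, so any gene that differs between them gives a high value, and these are descriptions.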
